A study of Mus musculus and Homo sapiens with 4 samples.

Results

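In mouse embryonic stem cells, 2484 annotated transcripts carried more ribosome footprint reads in the 3' trailer, the untranslated stretch after the stop codon, than in their own coding region. These transcripts are called members here. They were chosen by their measured reads: a coding region and a trailer listed as missing in neither mouse library, at least 100 trailer reads summed over both libraries, and more summed trailer than summed coding reads. They made up 39.5% of the 6288 transcripts with that many trailer reads, 5.94% of the 41841 with both parts counted, and came from 93380 transcripts listed in all. Another 3802 transcripts with at least 100 trailer reads had fewer trailer than coding reads and are called comparison rows, and 2 had equal numbers.

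The study compared footprints under different elongation inhibitors and after ribosome capture, in 4 libraries, of which the mouse pair is used here. Both mouse libraries came from E14 cells, an embryonic stem cell line of 129/Ola background, kept without feeder cells and in the presence of LIF, a cytokine that holds such cells undifferentiated. In one library the cells had received cycloheximide at 100 µg/ml for 60 s, and in the other emetine for 60 s, at a dose the labels do not give. Each drug has 1 library, so no p-value is given, the drug cannot be told apart from the library, and intervals cover counting error only. Amplified copies of a footprint are not independent molecules, and no molecular identifiers are named. Identifiers are Ensembl transcript names, of which 0 of the 2484 members occur in the name tables used here. The files do not pair them with genes, so no gene, sequence, genome position, length or stem cell marker could be given, and read numbers below are not corrected for the length of a part.

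A ribosome that reaches a stop codon normally releases its protein and leaves the message, so trailers of translated messages usually hold few footprints. Isoforms of one gene can use different stop codons, so a stretch annotated as trailer in one transcript can be coding sequence in another. Cycloheximide and emetine both halt elongating ribosomes; the former binds the large ribosomal subunit and the latter the small one.

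Trailer reads of members ranged widely. Summed over both libraries the lowest was 100, the median 1068 and the highest 522063. With cycloheximide the range was 20 to 302709 with a median of 667, and with emetine it was 20 to 259769 with a median of 401.5. Coding regions of the same transcripts held a median of 228.5 summed reads, from 0 to 252475. In comparison rows the median trailer held 236 reads and the median coding region 4123.

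The excess of trailer over coding reads was small in some members and extreme in others. In 603 members (24.3%) the trailer held less than 2 times the coding reads, in 605 (24.4%) from 2 to under 4 times, and in 729 (29.3%) from 4 to under 16 times. Another 398 (16.0%) had at least 16 times as many, and 149 (6.0%) had no coding read at all. Trailers took a median of 70.5% of all reads of a member transcript, with quartiles at 56.9% and 85.0%, and coding regions took 16.5%. In comparison rows these medians were 6.25% and 75.9%.

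**Figure D1:**
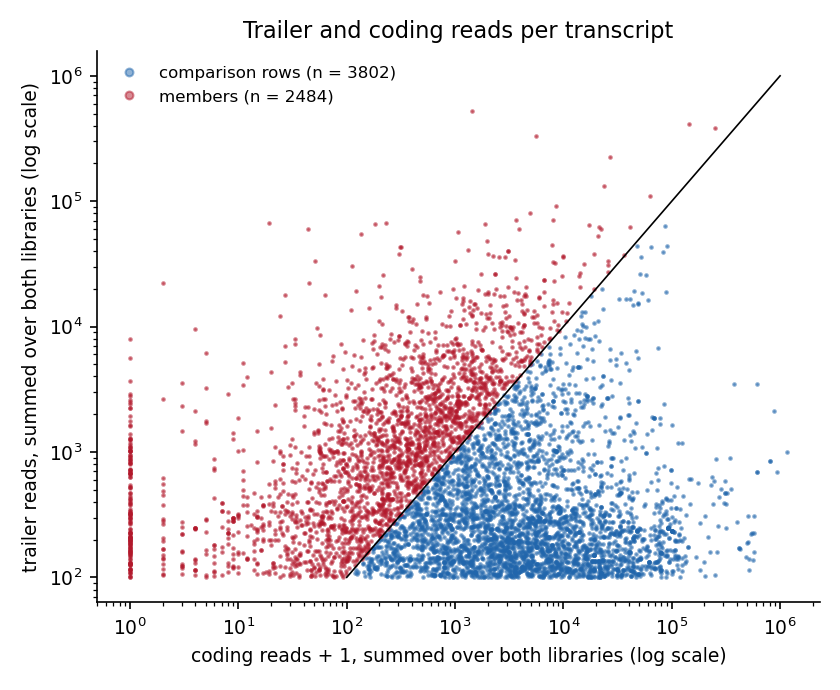
Summed trailer reads against summed coding reads plus 1 for each transcript, both on log scales, for 2484 members (red) and 3802 comparison rows (blue); the black line marks equal coding and trailer axis values. Members fill the region above the line down to coding regions with no reads, at the left edge, and the highest trailer holds 522063 reads.

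The rule used the sum of both libraries, and the libraries taken singly are given as a description. The trailer exceeded the coding region in both libraries for 2344 members (94.4%), with cycloheximide for 2440 (98.2%) and with emetine for 2388 (96.1%). Applied to the cycloheximide library alone, the same thresholds gave 2267 transcripts, and to the emetine library alone 2068. The 1946 found in both, out of 2484 members by the sum, were 85.8% of the former and 94.1% of the latter.

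The share of trailers that exceeded their coding region was higher among trailers with more reads. It was 18.6% of 2823 trailers from 100 to under 300 reads, 39.6% of 1689 from 300 to under 1000, 70.8% of 1566 from 1000 to under 10000, and 86.7% of 210 with 10000 or more. The bins use the same reads that chose the members, so this rise is a description. Members held most trailer reads of the mouse files, also a description by the reads that chose them. They took 78.0% of all trailer reads with cycloheximide (6589394 of 8452677) and 75.03% with emetine (3627216 of 4834512). Without the 10 members with most trailer reads these shares were 73.3% and 69.5%. Of all coding reads in transcripts with both parts, members held 1.04% with cycloheximide and 1.24% with emetine. These sums count a read again in every isoform that lists it.

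Near the threshold the parts were almost equal. Among trailers with at least 1000 reads, the member closest to it was ENSMUST00000147952, with 1624 trailer and 1615 coding reads, followed by ENSMUST00000117878 with 1739 and 1727 and ENSMUST00000135565 with 2292 and 2270. Just outside lay ENSMUST00000023698, with 1614 trailer and 1615 coding reads, then ENSMUST00000136719 with 1357 and 1362 and ENSMUST00000162277 with 2844 and 2856.

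At the other end the coding region was empty or nearly so. ENSMUST00000174301 had 5185 trailer reads with cycloheximide and 2788 with emetine, and 0 coding reads in both libraries. ENSMUST00000165457 had 15310 and 6987 trailer reads and a single coding read, with cycloheximide. ENSMUST00000139287 had 3477 and 2111 trailer reads, ENSMUST00000176973 had 2376 and 1296, and ENSMUST00000020266 had 1391 and 1522, all with 0 coding reads. These 5 were picked for the size of the excess, so the values are a description; a coding count of 0 allows up to 3 reads in a library.

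Members differed from comparison rows in their annotation as well. No leader, the untranslated stretch before the coding region, was counted in one or both files for 671 members (27.0%), against 521 comparison rows (13.7%) and 9.37% of all transcripts with both parts. Where a leader was counted, the median member had 18 summed leader reads and the median comparison row 147. The share of a transcript's reads that lay in no part had a median of 5.20% in members and 6.81% in comparison rows. It includes transcripts without a counted leader, for which no leader reads were subtracted.

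Exact repeats were few among members. All counts of another row were repeated by 62 members (2.5%), all of them repeats of another member, which left 2449 distinct sets of counts. The trailer counts of both libraries were shared with at least 1 other member by 189 members (7.61%), against 1213 comparison rows (31.9%) that shared theirs with another comparison row. Comparison rows were more numerous and held fewer trailer reads (median 236 against 1068), and equal counts at few reads can be coincidence. The 2 shares were not matched for reads. These 189 fell into 85 sets of up to 5 members. In 42 sets the coding counts were equal too, and in 43 they differed, so that the same trailer count stood beside different coding counts. Among the 19 sets with at least 1000 trailer reads, 11 had different coding counts. In all, members held 2380 distinct pairs of trailer counts.

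Trailers with nearly equal counts were also present. Of 1290 members with at least 1000 trailer reads, 1265 pairs of trailer counts were distinct, and 988 were when each count was rounded to 2 significant digits. At 10000 or more reads, 182 members gave 179 and 167. Of 486 comparison rows with at least 1000 trailer reads, 454 pairs were distinct and 409 after rounding. Rounded pairs can also coincide between unrelated transcripts.

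Some member trailers had exactly the counts of another transcript's coding region. Among 1108 members with 1000 to under 10000 trailer reads, 16 (1.44%) matched the coding region of some row in both libraries, and 4 matched a pair of coding counts that was 1 read away in the emetine library. Of 458 comparison rows with as many trailer reads, 4 (0.87%) matched exactly and 10 matched at 1 read away. For whole transcripts without a coding region the numbers were 15 equal and 7 at 1 read away in members, and 8 and 2 in comparison rows. Below 1000 reads, 157 of 1194 members matched a coding region exactly and 162 at 1 read away, and 249 and 211 matched a transcript without one, so most matches at these counts cannot be told apart from coincidence. At 10000 or more reads 0 of 182 members matched a coding region, and 1 matched a transcript without one. How far member trailers overlap coding regions of other isoforms was not tested further.

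The ratio of emetine to cycloheximide reads was not itself used to choose members. The sums that chose them held more cycloheximide than emetine reads, so the choice and this ratio are not independent. The ratio was scaled so that the median coding region with at least 100 summed reads had a log2 ratio of 0. This corresponds to a depth 1.76 times higher with cycloheximide. On this scale member trailers lay close to coding regions, with a median log2 ratio of 0.079 (95% interval from ranks 0.051 to 0.10, n = 2484) and quartiles at -0.24 and 0.40. Trailers of comparison rows had a median of 0.49 (0.46 to 0.52, n = 3802), 1.40-fold higher with emetine, with quartiles at 0.0059 and 0.97. The ratio was above 0 for 1388 members (55.9%) and for 2868 comparison rows (75.4%). Rank intervals treat transcripts as independent although isoforms overlap, so they are too narrow.

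Large differences between the libraries were correspondingly rarer among member trailers in the direction of emetine. Of 2484 member trailers, 98 (3.95%) reached a ratio of 2-fold or more in favour of emetine. So did 16.0% of all trailers with at least 100 reads, and 905 comparison rows (23.8%). Some members passed the rule only through their emetine reads. Where the cycloheximide library alone chose members, 53 of 2267 reached this ratio, and where the emetine library alone did, 89 of 2068. At least 2-fold lower were 33 members (1.33%), near the 1.26% of all trailers and the 46 comparison rows (1.21%). These lower shares differed within bins of reads. From 100 to under 300 reads they were 3.62% of members, 1.35% of comparison rows and 4.99% of coding regions. From 1000 to under 10000 reads they were 0.36%, 1.31% and 0.28%.

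This contrast with comparison rows depended on read number: the medians nearly coincided from 1000 to under 10000 reads and stood in the opposite order at 10000 or more. From 100 to under 300 reads the median log2 ratio was 0.26 for 525 member trailers, 0.64 for 2297 comparison trailers and 0.11 for 3691 coding regions with as many reads of their own. From 300 to under 1000 reads the medians were 0.16, 0.36 and 0.074. From 1000 to under 10000 reads they were 0.0037, 0.0079 and 0.028, and the gap between members and comparison rows was smaller than the rank interval of either median (-0.030 to 0.039 and -0.062 to 0.076). At 10000 or more reads they were -0.19 for 182 members (-0.26 to -0.15), -0.53 for 28 comparison rows (-0.58 to -0.38) and -0.19 for 4599 coding regions.

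The spread still differed among abundant trailers. From 1000 to under 10000 reads, 20 of 1108 member trailers (1.81%) had at least a 2-fold higher level with emetine, compared with 38 of 458 comparison trailers (8.30%) and 25 of 14510 coding regions (0.17%). The scaled median absolute deviation of the log2 ratio was 0.39 for members in this bin, 0.55 for comparison rows and 0.35 for coding regions. In the bin from 100 to under 300 reads, 48 of 525 member trailers (9.14%) were at least 2-fold higher, against 689 of 2297 comparison trailers and 7.37% of coding regions.

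**Figure D2:**
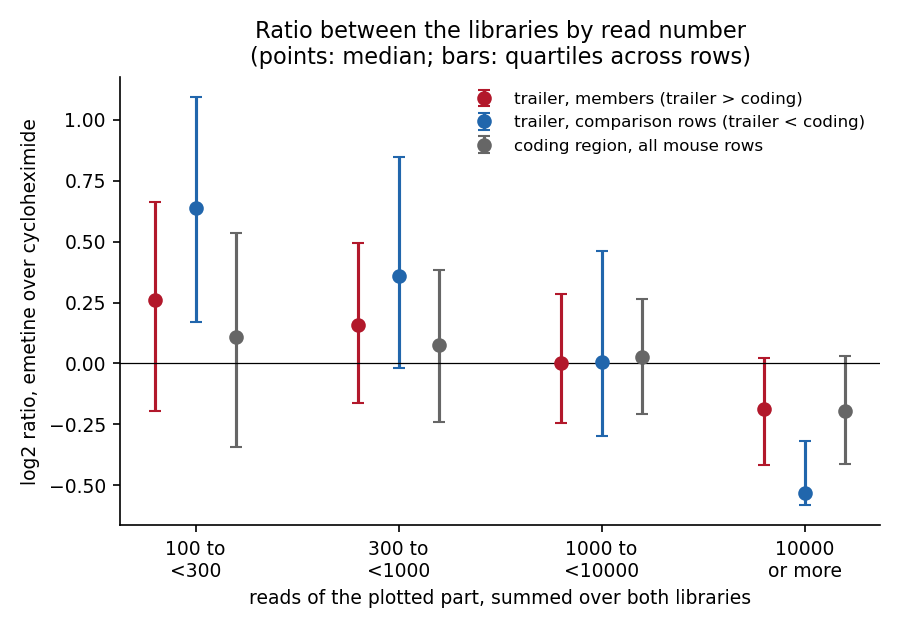
Median log2 ratio of emetine over cycloheximide (points) with quartiles across rows (bars), by summed reads of the plotted part, for member trailers (red), comparison trailers (blue) and all mouse coding regions (grey). Member trailers run from 0.26 to -0.19 across the bins, close to coding regions except at few reads, while comparison trailers start at 0.64 and end at -0.53.

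Among members the trailer ratio hardly depended on how far the trailer exceeded the coding region. With 1000 to under 10000 trailer reads the median was -0.026 for 251 members with less than 2 times the coding reads, 0.0060 for 292 from 2 to under 4 times, 0.0092 for 358 from 4 to under 16 times and -0.0040 for 178 with at least 16 times. Comparison rows of the same trailer reads had -0.0016 where the trailer held from 0.5 to under 1 of the coding reads (n = 174). They had -0.064 from 0.25 to under 0.5 (n = 128) and 0.015 from 0.1 to under 0.25 (n = 105). The one class that stood higher was that with under 0.1 trailer reads per coding read, at 0.52 (95% interval from ranks -0.076 to 0.84, n = 51). With 100 to under 300 trailer reads that class had a median of 0.75 (n = 1589), and member classes lay between 0.21 and 0.35. The 149 members with no coding read had a median trailer ratio of 0.30, at any number of trailer reads.

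**Figure D3:**
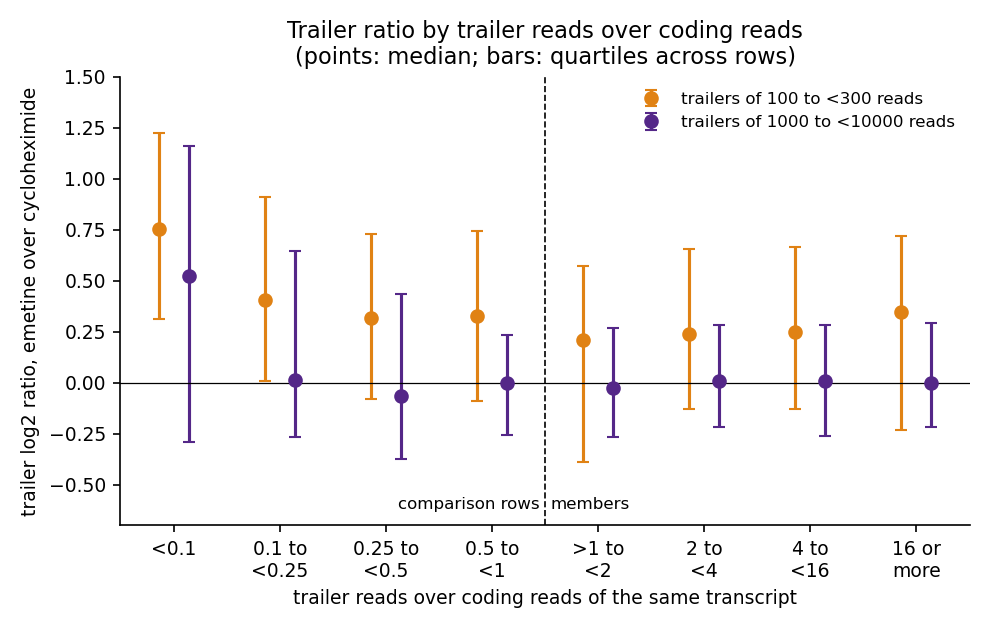
Median trailer log2 ratio (points) with quartiles across rows (bars), by trailer reads per coding read, for trailers of 100 to under 300 reads (orange) and 1000 to under 10000 reads (purple); the dashed line separates comparison rows from members. The leftmost class has medians of 0.75 and 0.52, and member classes have medians between 0.21 and 0.35 and between -0.026 and 0.0092. The 95% interval from ranks of the 0.52 (-0.076 to 0.84, n = 51) covers the member medians at that depth.

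The coding regions of members held few reads, and 821 members (33.1%) had under 100 of them, too few for a ratio here. Over the other 1663 the median coding log2 ratio was 0.11 (95% interval from ranks 0.092 to 0.14), with quartiles at -0.23 and 0.51. In comparison rows it was -0.083 (-0.097 to -0.067, n = 3802). Of the members' coding regions 108 (6.49%) exceeded 2-fold in favour of emetine, compared with 1.46% of 28604 mouse coding regions, and 44 (2.65%) at least 2-fold lower, against 1.19%.

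Coding regions with few reads had higher ratios in members and over the whole table. From 100 to under 300 coding reads the median was 0.23 for 570 members, 0.11 for all coding regions and 0.11 for 142 comparison rows. From 300 to under 1000 reads, 42 of 611 member coding regions (6.87%) were at least 2-fold higher, against 116 of 5801 coding regions over the whole table, at medians of 0.12 and 0.074. In that bin 11 members (1.8%) were at least 2-fold lower, against 1.67% over the whole table. From 1000 to under 10000 reads 2 of 459 (0.44%) were, against 0.17%, and 6 (1.31%) were at least 2-fold lower, against 0.28%.

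Within a transcript, the trailer ratio of members lay slightly below that of the coding region, and in comparison rows it lay above. Over 1663 members with at least 100 reads in both parts the median difference (trailer minus coding log2 ratio) was -0.11 (95% interval from ranks -0.15 to -0.087), and 695 of them (41.8%) lay above 0. Over 3802 comparison rows it was 0.50 (0.46 to 0.53), with 73.2% above 0. This difference does not depend on the scaling, but it varied with the library that chose the members. Its median was -0.15 when the cycloheximide library alone chose them and -0.047 when the emetine library alone did. The difference fell with trailer reads per coding read, the measure that divided the sets. Comparison rows had a median of 0.89 below 0.1 (n = 2021) and -0.0022 from 0.5 to under 1 (n = 591). Between these it was 0.30 from 0.1 to under 0.25 and 0.089 from 0.25 to under 0.5. Members had -0.089 below 2 (n = 561), -0.095 from 2, -0.17 from 4 and -0.23 from 16 (n = 121). The emetine to cycloheximide ratio of the trailer was at least 2-fold above that of its coding region in 69 members (4.15%). This held for 22.0% of all 5467 transcripts with at least 100 reads in both parts. The trailer's ratio was at least 2-fold below that of the coding region in 123 members (7.40%), against 3.46%.

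The members' median difference was below 0 in each bin of trailer reads. It was -0.16 from 100 to under 300 trailer reads (95% interval from ranks -0.40 to 0.0032, n = 115) and -0.082 from 300 to under 1000 (-0.15 to 0.030, n = 416), intervals that both reach above 0. It was -0.11 from 1000 to under 10000 (-0.17 to -0.081, n = 958) and -0.13 at 10000 or more (-0.20 to -0.053, n = 174). In the same bins comparison rows went from 0.71 through 0.34 and 0.079 to -0.094. Members without a counted leader had -0.029 (-0.092 to 0.032, n = 469) and those with one -0.15 (-0.19 to -0.11, n = 1194). Comparison rows without a counted leader had 0.079 (0.023 to 0.11, n = 521) and those with a leader 0.59 (0.55 to 0.64, n = 3281). The median trailer ratio without a leader was -0.00096 in 671 members and 0.091 in 521 comparison rows. With a leader these medians were 0.10 and 0.56.

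**Figure D4:**
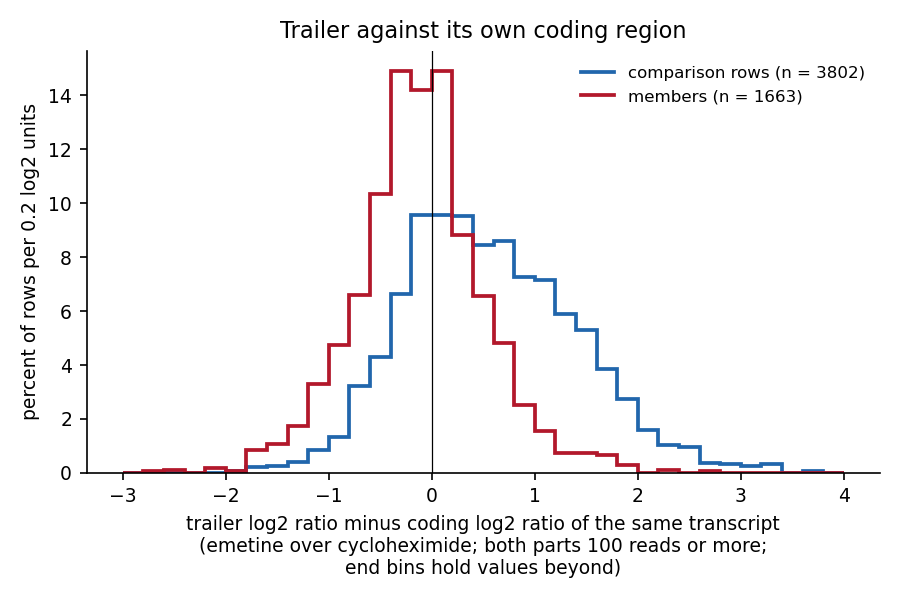
Percent of transcripts per 0.2 log2 units of the difference between the trailer and coding log2 ratios of the same transcript, for 1663 members (red) and 3802 comparison rows (blue) with at least 100 reads in both parts. Members centre at -0.11, and comparison rows centre at 0.50 with a long right side.

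Trailer and coding ratios of a member went together loosely. Where both parts had at least 1000 reads, Spearman's correlation across 482 members was 0.53 and Pearson's 0.49, and in 244 of them (50.6%) the ratios differed by less than 1.2-fold. Across 486 comparison rows of that depth the correlations were 0.44 and 0.35, and 253 (52.1%) differed by less than 1.2-fold. With at least 100 reads in both parts, Spearman's correlation was 0.31 across 1663 members and -0.061 across 3802 comparison rows. These are descriptions across transcripts, which share libraries and overlap as isoforms.

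Leaders of members had higher ratios than their trailers, but the 2 parts were not matched for reads. In the bins above, ratios were higher at few reads. Over 529 members with at least 100 leader reads the median leader log2 ratio was 0.43 (95% interval from ranks 0.37 to 0.50), 1.34-fold higher with emetine, and 76.4% were above 0. Leaders of 1827 comparison rows had 0.39 (0.36 to 0.42), and 76.4% were above 0. Against the trailer of the same transcript, member leaders lay higher by a median of 0.40 (0.30 to 0.46), while comparison leaders lay lower than their trailers (-0.32, from -0.36 to -0.26). Against the coding region, leaders lay higher by a median of 0.16 in 475 members (0.069 to 0.26) and 0.53 in 1827 comparison rows (0.48 to 0.56). Reads that fell in no part, counted where a leader was listed and at least 100 such reads were present, had a median of 0.33 in 889 members and 0.29 in 2653 comparison rows.

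The 10 members with most trailer reads held 22.5% of the members' trailer reads with cycloheximide and 24.3% with emetine. Relative to the median coding region, 7 of these trailers were lower with emetine and 3 were higher, all by less than 2-fold. This is near the share at such depth: at 10000 or more reads, 26.4% of 182 member trailers and 27.0% of 4599 coding regions were higher. Each of the 10 had trailer counts that no other row shared, and 4 had no counted leader.

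The most abundant trailer was that of ENSMUST00000030127, with 262294 cycloheximide reads and 259769 emetine reads, beside 873 and 548 coding reads. Its ratio was 1.74-fold in favour of emetine (exact 95% counting limits 1.73 and 1.75), and its coding region 1.10-fold higher (0.99 to 1.23). The trailer of ENSMUST00000131103 had 302709 and 111320 reads, 1.55-fold lower (1.54 to 1.56). Its coding region had 104383 and 39309 reads, 1.51-fold lower, so both parts had similar ratios. ENSMUST00000176204 had 199289 and 185046 trailer reads, 1.63-fold higher (1.62 to 1.64), and 133380 and 119095 coding reads, 1.57-fold higher. Its leader had 42883 reads under cycloheximide and 22455 under emetine, only slightly lower with emetine at the depth ratio of 1.76.

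In 3 of the 10 the trailer was lower with emetine while the coding region was higher. ENSMUST00000078717 had 238494 and 94469 trailer reads, 1.44-fold lower (1.43 to 1.45), beside 3366 and 2264 coding reads, 1.18-fold higher (1.12 to 1.25). ENSMUST00000102589 had 94497 and 37869 trailer reads, 1.42-fold lower, beside 15011 and 8854 coding reads, 1.04-fold higher (1.01 to 1.06). ENSMUST00000163844 had 62331 and 29572 trailer reads, 1.2-fold lower, beside 5343 and 3241 coding reads, 1.07-fold higher (1.02 to 1.11).

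The other 4 had both parts on the same side. The trailer of ENSMUST00000166135 had 147877 and 77780 reads, 1.08-fold lower, and its coding region of 17783 and 8881 reads was 1.14-fold lower. ENSMUST00000174372 had 74334 and 35040 trailer reads, 1.21-fold lower, and 45056 and 18030 coding reads, 1.42-fold lower. ENSMUST00000177376 had 56729 and 23241 trailer reads, 1.39-fold lower, and 3528 and 1397 coding reads, 1.44-fold lower. ENSMUST00000124826 had 43929 and 26918 trailer reads, 1.08-fold higher, and 1990 and 1631 coding reads, 1.44-fold higher.

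**Figure D5:**
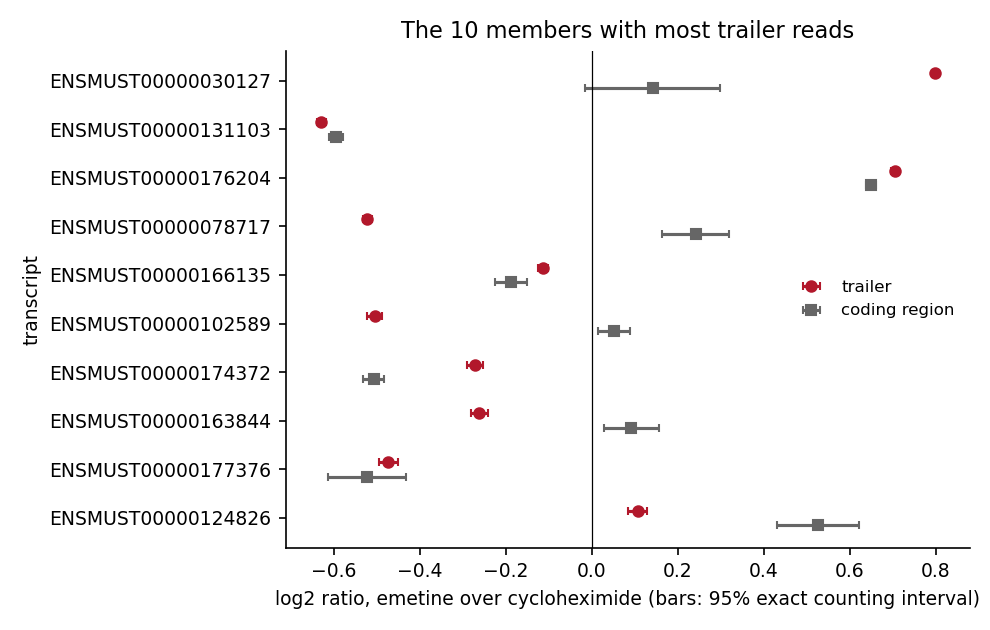
Log2 ratio of emetine over cycloheximide for the trailer (red circles) and the coding region (grey squares) of the 10 members with most trailer reads, with exact 95% counting intervals (bars). In 7 of them both parts lie on the same side of 0, and in 3 the trailer is below 0 and the coding region above it.

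The members at each end of the trailer ratio were picked by that ratio, and their coding values are given beside it as a description. Among those with at least 500 trailer reads the highest was ENSMUST00000025212, with 857 cycloheximide reads and 1408 emetine reads, a ratio 2.89-fold above the median coding region (exact 95% interval 2.65 to 3.15). Its coding region had 240 and 119 reads, 1.15-fold lower (0.92 to 1.44). Next was ENSMUST00000022986, with 235 and 349 trailer reads, 2.61-fold higher (2.21 to 3.09), and 305 and 122 coding reads, 1.42-fold lower (1.15 to 1.77). In this last transcript the trailer exceeded the coding region with emetine only. In another of the 5 highest members the coding region was higher with emetine too, 2.20-fold (1.67 to 2.91) beside 2.51-fold for the trailer.

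The lowest was ENSMUST00000019660, with 1834 trailer reads with cycloheximide and 404 with emetine, 2.58-fold lower (2.32 to 2.88). Another member listed the same trailer counts. Its coding region had 521 and 372 reads, 1.25-fold higher (1.10 to 1.44). ENSMUST00000143776 followed with 523 and 117 trailer reads, 2.54-fold lower (2.08 to 3.14), and 158 and 97 coding reads, 1.08-fold higher (0.83 to 1.40).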

How the data were processed

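Ribosome footprints of E14 cells were counted in 1 cycloheximide and 1 emetine library after RNase I treatment of the lysate and pelleting of ribosomes, per the labels' protocols. The authors deposited raw counts of reads for each transcript, coding region, leader and trailer, per the file headers. CASAVA 1.8, Bowtie2 2.0.6, TopHat2 2.0.7 and the build mm10 appear, with no role stated, in the submitters' processing notes. The counter, the annotation release and the handling of reads with more than one match were not given in the sources used here. The HEK libraries were not used here.

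Log2 ratios took a prior of 0.5 scaled reads and were computed with Python 3.11.15 (pandas 2.3.3, scipy 1.17.1); edgeR 4.0.16 gave the alternative TMM scaling. Ratios of single transcripts have exact (Clopper-Pearson) intervals. Scripts were tested on simulated data. Reads counted for whole transcripts summed to 342552347 with cycloheximide and 188700177 with emetine, repeats among isoforms included.

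Members, read bins and measures were chosen with earlier results of these data known. Named were the 10 members with most trailer reads, the highest and lowest trailer ratios from 500 reads, the 5 largest trailer excesses and the 3 nearest each side of the threshold from 1000 reads. Each pair of trailer counts is named once, and 2 of 5 planned transcripts at each end of the ratio are printed because they could not be paired with genes. For the same reason planned gene lists and markers were not used.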

Additional observations from a re-analysis of the deposited data

How the results depend on the processing

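No paired analysis was possible because only 1 library stands for each drug. Of 96 recomputed values, 57 stayed inside the rank interval of the reported median or within 1.5 times the reported count. Where a value did not, its cause was not tested unless the alternative itself admits other rows. The trailer median of members turned below 0, to -0.038, with at least 1000 trailer reads (1290 members), and its gap to comparison rows went from -0.41 to 0.00079; with at least 500 reads these were 0.0091 and -0.11. Scaling to total counts gave medians of 0.13 for trailers and 0.16 for coding regions. Coding regions with at least 500 reads had 0.078.

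Trailers different by 2-fold or more, 131 in all (98 higher and 33 lower with emetine), numbered 254 (184 and 70) from 30 reads, 46 (37 and 9) from 500 and 29 (24 and 5) from 1000. At 1.5-fold there were 545 (384 and 161) and at 4-fold 3 (3 and 0). Lower trailers numbered 21 where the trailer held over 2 times the coding reads.

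Choosing members in the cycloheximide library alone gave a trailer median of 0.033, a gap of -0.24, a trailer minus coding difference of -0.15 and 84 trailers past 2-fold (53 higher). Choosing them in the emetine library alone gave a coding median of 0.086, a difference of -0.047 and 8 lower trailers. Such a choice favours trailers that are high in the library used, and the sum of both holds more cycloheximide reads.

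The following were added after seeing the data. Members with a counted leader had medians of 0.10 for trailers, 0.16 for coding regions and -0.15 for the difference, with 20 lower trailers. Members whose trailer counts appear in no other part of any row, which leaves out 686 members, 605 of them with under 1000 trailer reads, had a trailer median of -2.2e-05 and 74 trailers past 2-fold (51 higher). The trailer minus coding difference stayed below 0 under each alternative run. Each of these still required more trailer than coding reads, the measure along which this difference fell. A minimum of 30 trailer reads could not change it, since the same 1663 members remained. Depth left 33.1% of members with under 100 coding reads and thus without a coding ratio.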
